A study of Mus musculus with 10 samples.

Results

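The growth-related imprinted genes described here are 10 genes, Peg3, Ndn, Snrpn, Impact, Igf2, H19, Dlk1, Cdkn1c, Grb10 and Plagl1, chosen by symbol from the 55573 genes of the count table. Of these, 9 code for proteins and H19 gives a long noncoding RNA. For this description 4 members were classed as neuronal (Peg3, Ndn, Snrpn and Impact) and 6 as mesenchymal (Igf2, H19, Dlk1, Cdkn1c, Grb10 and Plagl1), after the tissues they are best known from. RNA was measured by sequencing of polyA RNA from EYFP-positive cells sorted from the cortex on postnatal day 3, one preparation per pup. The 5 Cdk7_KO pups carried NexCre/+, Cdk7lox/lox and R26EYFP/+, and the 5 Ctrl pups carried NexCre/+, Cdk7+/+ and R26EYFP/+. Both groups thus had the Cre driver, which sits in the Neurod6 locus and is active in cortical projection neurons soon after they are born, and a reporter that lights up only after Cre has acted. Cdk7 is the kinase subunit of TFIIH, a factor that RNA polymerase II needs to start transcription, and the comparison asks how these genes are expressed where it is lost.

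An imprinted gene is read mainly from 1 of the 2 parental copies, in many cases as set by DNA methylation laid down in the germ line. Many imprinted genes act on growth: those expressed from the paternal copy often promote it, as Igf2 does, and those expressed from the maternal copy often restrain it, as Cdkn1c does. Several stay on in neurons after birth, while Igf2, H19 and Dlk1 are known for high levels in embryonic mesenchyme and for a decline after birth. Grb10 is known in the mouse for a switch of copy, being read from the maternal one in most tissues and from the paternal one in neurons. Reads were counted per gene here, so the data do not show which copy an RNA came from.

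The libraries held between 23497621 and 31233466 counts. Cdk7 averaged 5.16 ± 1.3 CPM (counts scaled to a common library total) in Cdk7_KO and 15.7 ± 4.0 CPM in Ctrl (SD, n = 5 each), with no overlap between the groups and a two-sided exact permutation p of 0.0079, the smallest that these group sizes allow. All 10 markers of projection neurons passed the filter on low counts, and their summed level was 1884 to 2545 CPM in Cdk7_KO and 1598 to 2386 CPM in Ctrl. RNA of other cell types was present in both genotypes. Every tested marker of radial glia (12), vessels (16), astrocytes (8), microglia (10), the oligodendrocyte lineage (8), interneurons (10), red cells (5) and fibroblasts and meninges (9) had a negative log2 fold change, and 0 of them were called by edgeR after adjustment. Ctrl replicate 1 stood apart in its vascular markers, with a sum of 1561 CPM where the next library, Ctrl replicate 3, had 664.6 CPM. In sorted bulk RNA, fewer cells of a type and less RNA per cell cannot be told apart.

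The members spanned a wide range of levels. Levels per kilobase divide by the exon length merged over all annotated transcripts, so their order and percentiles depend on those lengths. Per kilobase of exon, Ndn was the most abundant, at 79.2 ± 5.3 CPM per kb in Cdk7_KO and 78.8 ± 7.2 CPM per kb in Ctrl (SD, n = 5 each). Ndn encodes necdin, a protein of the MAGE family that restrains cell division and supports the survival of neurons. Snrpn, which encodes the SmN protein of the spliceosome in neurons, came next at 68.3 ± 7.6 CPM per kb in Cdk7_KO and 64.4 ± 6.0 CPM per kb in Ctrl, below Ndn in all 10 libraries although the ranges of the 2 genes overlapped. Cdkn1c, the gene of the cyclin-dependent kinase inhibitor p57, followed with 44.2 ± 2.7 CPM per kb in Cdk7_KO and 39.1 ± 5.2 CPM per kb in Ctrl. Its range lay wholly below that of Snrpn and wholly above that of Peg3.

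Peg3 and Impact did not differ from each other beyond their spread, with 6.78 ± 0.92 and 6.65 ± 0.87 CPM per kb in Cdk7_KO and 7.44 ± 1.78 and 7.40 ± 1.06 CPM per kb in Ctrl. Grb10 and Plagl1 overlapped likewise, Grb10 being the higher of them in 6 of 10 libraries, with means over all libraries of 2.46 and 2.26 CPM per kb. H19 averaged 0.933 ± 0.18 CPM per kb in Cdk7_KO and 2.04 ± 0.82 CPM per kb in Ctrl. Dlk1 and Igf2 were at the bottom, with 0.145 and 0.126 CPM per kb over all libraries and overlapping ranges. Among the genes tested, 96.7% lay below Ndn in level per kb, and 1.78% lay below Igf2. The class names did not sort the levels, since Cdkn1c stood among the neuronal members and above Peg3 and Impact in all 10 libraries.

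**Figure D1:**
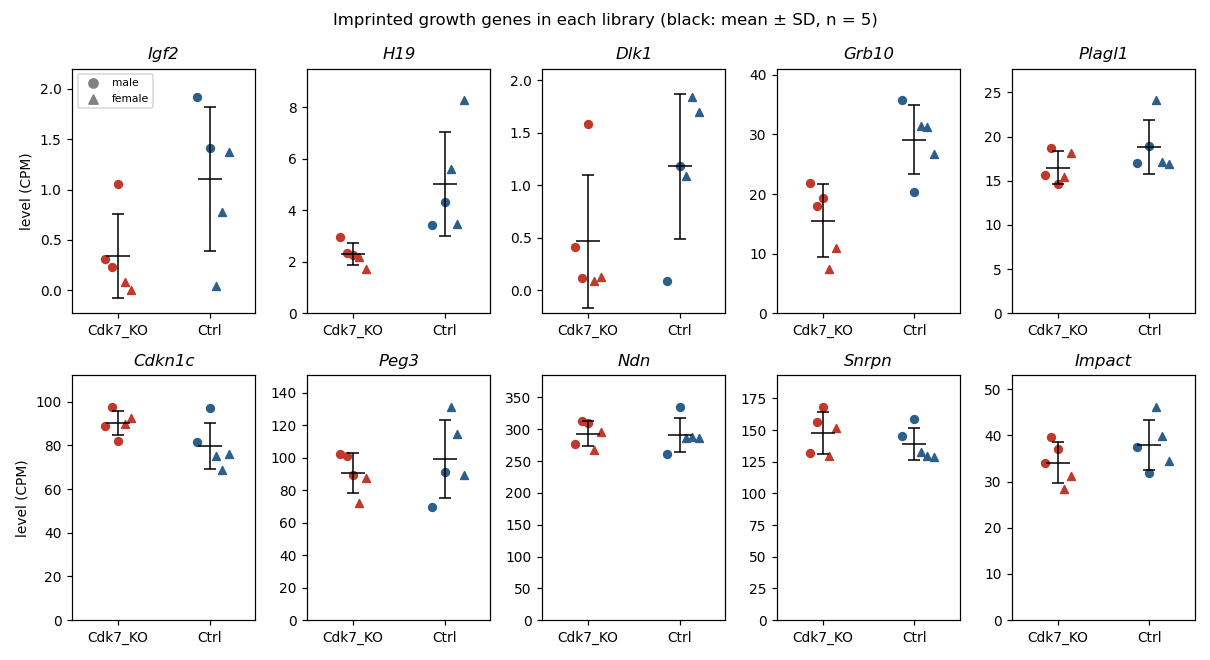
Level of each member in CPM (y axis, linear) in the 5 Cdk7_KO and the 5 Ctrl libraries. Points are libraries, circles male and triangles female by Xist and Ddx3y, and black marks give the mean ± SD. H19 shows no overlap between the genotypes, with a highest Cdk7_KO library of 2.94 CPM and a lowest Ctrl library of 3.40 CPM, while the points of Ndn and Snrpn lie in the same range.

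Between the genotypes, edgeR's quasi-likelihood test called 0 of the 10 members and 0 of 15578 genes (0.0%) at an adjusted p under 0.05. The targeted gene Cdk7 was thus not called either, at a log2 fold change of -1.54 (SE 0.22, edgeR unadjusted p = 1.43e-05, adjusted p = 0.161). The adjustment gave the same 0.161 to genes with a larger unadjusted p, such as H19 (edgeR unadjusted p = 0.0023). At an unadjusted p under 0.05 the test gave 2 members lower in Cdk7_KO, H19 and Grb10, and 1 higher, Cdkn1c, beside 10.5% of all genes lower and 4.9% higher. That is 763 genes higher and 1630 lower, and scaling by library totals made it 311 higher and 1907 lower, with Cdkn1c no longer among them. Cdkn1c also missed an unadjusted p under 0.05 with the replicate block, in male libraries alone and when Cdk7_KO replicate 2, 4 or 5 or Ctrl replicate 4, 5 or 6 was left out. Limma's voom called 0 genes, while DESeq2 called 561, among them H19 and Grb10 as lower. DESeq2 called 3.02% of genes lower and 0.225% higher. The median log2 fold change was -0.12 over the members and 0.01 over all genes. By class, the 6 mesenchymal members had a median of -0.97, from -1.67 for Igf2 to 0.23 for Cdkn1c. That median includes Igf2 (SE 0.89) and Dlk1 (-1.31, SE 0.82), which rest on few counts, and the better counted Plagl1 was at -0.13. The 4 neuronal members had a median of -0.01, from -0.10 for Impact to 0.14 for Snrpn. The summed level of the neuronal members was 564.6 ± 45.9 CPM in Cdk7_KO and 567.3 ± 41.7 CPM in Ctrl, and that of the mesenchymal members was 125.2 ± 8.4 CPM in Cdk7_KO and 134.9 ± 7.9 CPM in Ctrl (SD, n = 5 each). Cdkn1c makes up most of the mesenchymal sum.

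**Figure D2:**
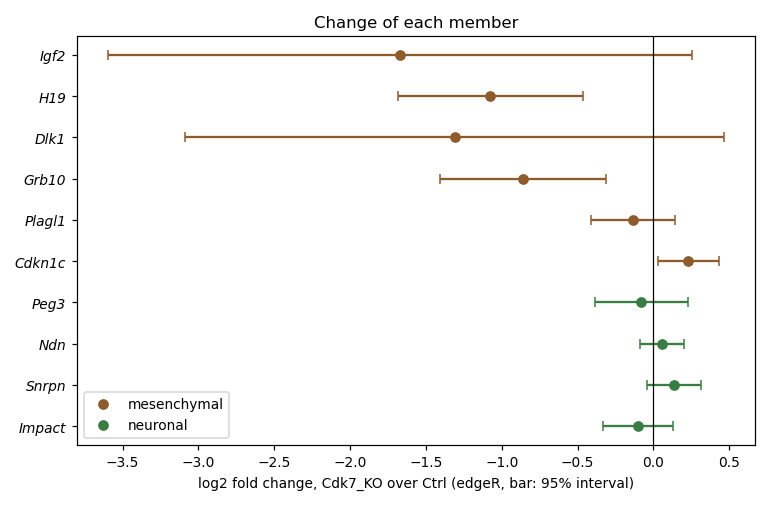
Log2 fold change of Cdk7_KO over Ctrl (x axis) for each member, with the 95% interval from edgeR, in brown for mesenchymal and green for neuronal members. The intervals of H19 (-1.69 to -0.47) and Grb10 (-1.41 to -0.31) lie below 0 and that of Cdkn1c (0.03 to 0.43) lies above it, all before correction over the genes tested. Those of Igf2 and Dlk1 are the widest.

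H19, a maternally expressed noncoding RNA that shares its control region with Igf2, was lower in every Cdk7_KO library than in any Ctrl library. It was at 2.94, 2.34, 2.27, 2.19 and 1.73 CPM in Cdk7_KO replicates 1 to 5, against 3.40, 4.32, 5.61, 3.46 and 8.25 CPM in Ctrl replicates 1, 3, 4, 5 and 6. The groups did not overlap, which held for 2.41% of all tested genes in this direction, and 0 members lay wholly higher in Cdk7_KO, beside 0.61% of genes. The Cdk7_KO mean was 45.8% of the Ctrl mean, and the log2 fold change was -1.08 (SE 0.28, edgeR adjusted p = 0.161; DESeq2 adjusted p = 0.0145). The level rests on 42 to 85 counts per Cdk7_KO library and 80 to 223 per Ctrl library. H19 (ENSMUSG00000000031) lies on chromosome 7 from 142575529 to 142578143 in GRCm38, on the minus strand, and holds the microRNA gene Mir675 within it. Mir675, and Mir483 within Igf2, had 0 counts in all 10 libraries, which were made for polyA RNA. Their mature sequences follow from RefSeq (GRCm38.p6), shown because they are the small RNA products of the H19 and Igf2 loci, with the seed (bases 2 to 8) in capitals. No 2 of the 4 share a seed.
mmu-miR-675-5p: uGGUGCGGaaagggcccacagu
mmu-miR-675-3p: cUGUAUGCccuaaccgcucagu
mmu-miR-483-5p: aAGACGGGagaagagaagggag
mmu-miR-483-3p: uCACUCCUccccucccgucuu

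Grb10 encodes an adaptor protein that binds the insulin and insulin-like growth factor receptors and damps their signal. It was at 21.9, 17.9, 19.4, 7.44 and 10.99 CPM in Cdk7_KO replicates 1 to 5, against 35.7, 20.4, 31.4, 31.2 and 26.8 CPM in Ctrl replicates 1, 3, 4, 5 and 6. All Cdk7_KO libraries lay below the Ctrl median, with Cdk7_KO replicates 4 and 5 lowest, and the groups overlapped only in that Ctrl replicate 3 lay below Cdk7_KO replicate 1. The Cdk7_KO mean was 53.4% of the Ctrl mean, a log2 fold change of -0.86 (SE 0.25, edgeR adjusted p = 0.176; DESeq2 adjusted p = 0.0184). All 12 radial glia markers were lower in Cdk7_KO at an unadjusted p under 0.05, as were 15 of 16 vessel markers, beside 10.5% of all genes. The marker lists here and below were chosen with earlier results of these data known, so such counts are a description only. Summed radial glia markers were lowest in Cdk7_KO replicates 4 and 5, at 650.9 and 999.2 CPM, and ranged from 1158 to 1660 CPM in the other Cdk7_KO libraries and from 1531 to 2456 CPM in Ctrl. Astrocyte markers were lowest in the same Cdk7_KO libraries, at 77.97 CPM in replicate 4 and 162.3 CPM in replicate 5. Within Ctrl the order differed, since replicate 3, lowest in Grb10, had the second highest radial glia sum of 2380 CPM, and replicate 6 had the lowest. Low sums in Cdk7_KO replicate 4 were not particular to glia. It was also the lowest library in markers of vessels (65.9 CPM), microglia (53.5 CPM), the oligodendrocyte lineage (202.9 CPM) and interneurons (24.7 CPM). It was not the lowest in those of red cells or of fibroblasts and meninges. Its projection neuron sum, 2545 CPM, was the highest. The part of any of these cells in the lower Grb10 level was not tested.

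Grb10 (ENSMUSG00000020176) lies on chromosome 11 from 11930508 to 12038683 in GRCm38, on the minus strand. The RefSeq promoter table (GRCm38.p6) gives it 2 windows, each of 250 bases before and 50 after an annotated start, and they are shown because counts per gene do not tell their transcripts apart. CG dinucleotides, the sites of DNA methylation, are in capitals. The upstream window, chr11:12037371-12037670 on the minus strand, holds 45 CG, more than 98.1% of the 32851 windows in the table. The downstream one, chr11:12027922-12028221, holds 9, against a median of 7 over all windows.
Grb10 upstream window: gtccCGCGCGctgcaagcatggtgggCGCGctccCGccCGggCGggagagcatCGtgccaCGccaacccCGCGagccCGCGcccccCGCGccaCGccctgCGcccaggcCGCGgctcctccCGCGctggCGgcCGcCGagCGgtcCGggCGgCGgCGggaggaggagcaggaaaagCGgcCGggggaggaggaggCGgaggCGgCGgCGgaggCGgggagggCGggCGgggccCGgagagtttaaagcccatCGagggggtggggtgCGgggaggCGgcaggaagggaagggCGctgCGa
Grb10 downstream window: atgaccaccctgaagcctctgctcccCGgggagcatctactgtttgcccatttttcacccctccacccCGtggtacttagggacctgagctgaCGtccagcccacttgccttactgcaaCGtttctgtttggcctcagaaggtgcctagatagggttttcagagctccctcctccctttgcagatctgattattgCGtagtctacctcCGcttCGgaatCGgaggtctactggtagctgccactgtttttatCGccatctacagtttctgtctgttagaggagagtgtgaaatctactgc
The GC box GGGCGG was found 5 times in the upstream window and 0 times in the downstream one, counting both strands, and each match holds a CG. It is present in 35.7% of all windows. The core letters CCCTC of the CTCF motif were found 2 times in each window and are present in 66.0% of all windows. The TATA box TATAAA was found in neither, and 13.6% of all windows hold it.

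Cdkn1c was slightly higher in Cdk7_KO. It was at 88.7, 97.4, 82.2, 89.7 and 92.4 CPM in Cdk7_KO replicates 1 to 5, against 81.3, 97.0, 75.1, 68.8 and 75.9 CPM in Ctrl replicates 1, 3, 4, 5 and 6. Each Cdk7_KO library exceeded the Ctrl median of 75.9 CPM, but Ctrl replicate 3 was nearly as high as the highest Cdk7_KO library. The log2 fold change was 0.23 (SE 0.09, edgeR adjusted p = 0.265), and DESeq2 did not call it (adjusted p = 0.287). Cdkn1c (ENSMUSG00000037664) lies on chromosome 7 from 143458339 to 143461050 in GRCm38. Projection neuron markers also stood higher in Cdk7_KO, all 10 having a positive log2 fold change with a median of 0.31. Not every library followed this, since Ctrl replicate 3 had the highest Ctrl level of Cdkn1c and the lowest projection neuron sum of 1598 CPM, and Cdk7_KO replicate 2 had the highest level of Cdkn1c and the second lowest Cdk7_KO sum of 1989 CPM. The part of these markers in the Cdkn1c level was not tested.

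Igf2, which encodes insulin-like growth factor 2, was near the limit of detection in these sorted cells. It lies on chromosome 7 from 142650766 to 142666816 in GRCm38, on the minus strand. It had 9, 6, 26, 2 and 0 counts in Cdk7_KO replicates 1 to 5, against 45, 44, 1, 22 and 37 counts in Ctrl replicates 1, 3, 4, 5 and 6. The 0 counts of Cdk7_KO replicate 5 allow a level of up to 0.123 CPM (3 counts, counting error only). Cdk7_KO replicate 3 and Ctrl replicate 4 crossed into the range of the other group. Summed over libraries, Igf2 had 43 counts in Cdk7_KO and 149 in Ctrl. The log2 fold change of -1.67 had an SE of 0.89 (edgeR adjusted p = 0.395), and without Cdk7_KO replicate 3 it was -2.70 (adjusted p = 0.180).

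Dlk1, a membrane protein of the Delta family that holds back fat cell differentiation, was about as rare. Its gene lies on chromosome 12 from 109452823 to 109463336, on the plus strand. It had 12, 3, 39, 2 and 3 counts in Cdk7_KO replicates 1 to 5, against 2, 37, 27, 52 and 46 counts in Ctrl replicates 1, 3, 4, 5 and 6. Again Cdk7_KO replicate 3 was high, and here Ctrl replicate 1 was low. The log2 fold change was -1.31 (SE 0.82, edgeR adjusted p = 0.474), and without Cdk7_KO replicate 3 it was -2.56 (adjusted p = 0.147).

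Fibroblast RNA varied between the libraries as well. The summed level of Col1a1, Col1a2 and Col3a1, a sum chosen after the values were seen, was 4.36, 12.9, 21.3, 3.45 and 12.01 CPM in Cdk7_KO replicates 1 to 5, against 39.8, 71.5, 8.35, 15.7 and 54.3 CPM in Ctrl replicates 1, 3, 4, 5 and 6. Cdk7_KO replicate 3 was the highest Cdk7_KO library in collagen RNA and in Igf2, and Ctrl replicate 4 was the lowest Ctrl library in both. The order was not the same throughout, since Cdk7_KO replicate 5 had 0 Igf2 counts and more collagen RNA than Cdk7_KO replicates 1 and 4. H19 was high in Ctrl replicate 4, at 5.61 CPM, where collagen RNA was low. Dlk1 was low in Ctrl replicate 1, at 0.0851 CPM, where collagen RNA was at 39.8 CPM. Of the 14 fibroblast and meningeal markers, 9 were tested, with a median log2 fold change of -1.53. Of these markers 5 were lower at an unadjusted p under 0.05, beside 10.5% of all genes. Their sum over all 14 was 100.1 to 266.5 CPM in Cdk7_KO and 223.0 to 413.3 CPM in Ctrl. Pdgfra, which oligodendrocyte precursors express as well, averaged 104.4 CPM of it in Cdk7_KO and 183.3 CPM in Ctrl. The sum over all 14 did not follow Igf2 as the 3 collagens did. By that sum the highest Cdk7_KO library was replicate 1, at 266.5 CPM, with replicate 3 at 132.8 CPM. The lowest Ctrl library was replicate 3, at 223.0 CPM, with replicate 4 at 269.95 CPM. None of the 14 was at 0 in all libraries. Examples were Col1a2 at -1.86 (SE 0.62), the matrix gene Ogn at -2.52 (SE 0.94), Bgn at -1.53 (SE 0.59) and Fbln1 at -0.12 (SE 0.13). Choroid plexus markers, another known source of Igf2, summed to 0.841 to 2.03 CPM in Cdk7_KO and 1.38 to 2.74 CPM in Ctrl, and 1 of 8, Clic6, was high enough to test. Summed vessel markers also went with Igf2 in part. Both were highest in Ctrl replicate 1. Among Cdk7_KO libraries both were highest in replicate 3 (vessel sum 367.3 CPM), and among Ctrl both were lowest in replicate 4 (272.4 CPM). Not every library followed, since Cdk7_KO replicate 5, with 0 Igf2 counts, had a vessel sum of 196.3 CPM and replicate 1 had 159.7 CPM. H19 and Dlk1 were at their lowest Ctrl level in replicate 1. The part of any of these cells in the Igf2, H19 and Dlk1 levels was not tested.

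**Figure D3:**
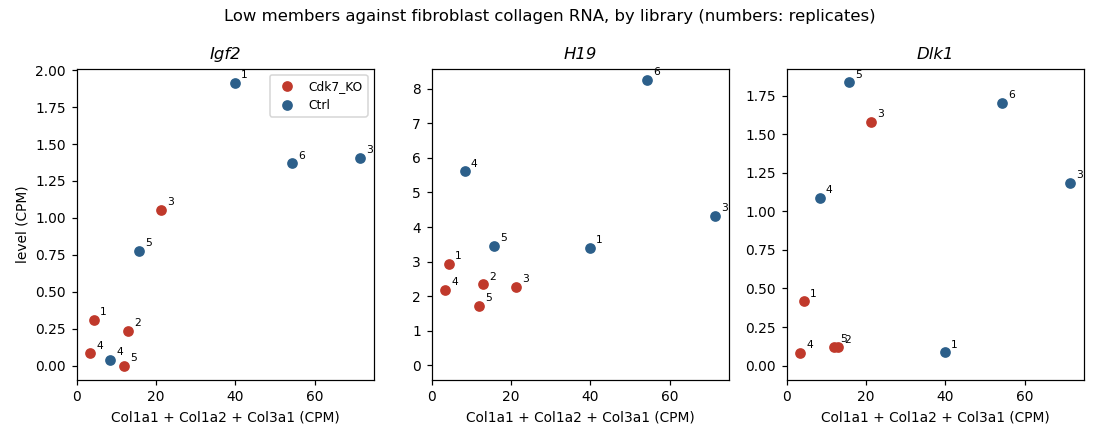
Level of Igf2, H19 and Dlk1 (y axes, CPM) against the summed level of Col1a1, Col1a2 and Col3a1 (x axis, CPM) in each library, Cdk7_KO in red and Ctrl in blue, with replicate numbers. Ctrl replicate 4 has the least collagen RNA of the Ctrl libraries, 8.35 CPM, and the least Igf2, and its H19 level is 5.61 CPM.

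Plagl1, a zinc finger transcription factor gene that regulates other imprinted genes in the mouse embryo, did not pass the test. It ranged from 14.6 to 18.8 CPM in Cdk7_KO and from 16.9 to 24.1 CPM in Ctrl, with medians of 15.6 CPM in Cdk7_KO and 17.1 CPM in Ctrl. It lies on chromosome 10 from 13060504 to 13131694. With a log2 fold change of -0.13, its 95% interval ran from -0.41 to 0.14.

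None of the 4 neuronal members passed the test over all libraries, at an adjusted or an unadjusted p under 0.05. Ndn (62346569 to 62350262), Snrpn (59982495 to 60140219) and Peg3 (6703892 to 6730431) lie on chromosome 7. Ndn was at 277.4, 312.5, 309.9, 268.1 and 295.4 CPM in Cdk7_KO replicates 1 to 5, against 261.2, 334.4, 287.0, 287.5 and 285.9 CPM in Ctrl replicates 1, 3, 4, 5 and 6. The groups overlapped fully, and the log2 fold change was 0.06 (95% interval -0.09 to 0.20). Snrpn ranged from 129.6 to 168.0 CPM in Cdk7_KO and from 128.5 to 158.6 CPM in Ctrl, with a log2 fold change of 0.14 (95% interval -0.04 to 0.31). Peg3, a large zinc finger protein known for its part in growth and maternal behaviour in mice, ranged from 72.0 to 102.0 CPM in Cdk7_KO and from 69.8 to 131.0 CPM in Ctrl, with a log2 fold change of -0.08 (95% interval -0.38 to 0.23). Impact, which inhibits the kinase GCN2 of the integrated stress response, ranged from 28.4 to 39.6 CPM in Cdk7_KO and from 31.9 to 46.1 CPM in Ctrl, with a log2 fold change of -0.10 (95% interval -0.33 to 0.13). Each of these intervals excludes a 2-fold difference in either direction.

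The promoter windows of Ndn and Peg3 are shown for comparison with those of Grb10, again with CG in capitals. The Ndn window, chr7:62348027-62348326 on the plus strand, holds 11 CG and 2 GC boxes. The Peg3 window, chr7:6730370-6730669 on the minus strand, holds 13 CG and 0 GC boxes.
Ndn window: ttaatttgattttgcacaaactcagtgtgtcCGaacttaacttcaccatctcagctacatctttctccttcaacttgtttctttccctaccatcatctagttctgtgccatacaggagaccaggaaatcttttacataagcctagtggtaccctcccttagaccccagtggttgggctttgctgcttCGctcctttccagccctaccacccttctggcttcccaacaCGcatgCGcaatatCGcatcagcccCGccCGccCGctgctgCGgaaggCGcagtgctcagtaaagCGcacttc
Peg3 window: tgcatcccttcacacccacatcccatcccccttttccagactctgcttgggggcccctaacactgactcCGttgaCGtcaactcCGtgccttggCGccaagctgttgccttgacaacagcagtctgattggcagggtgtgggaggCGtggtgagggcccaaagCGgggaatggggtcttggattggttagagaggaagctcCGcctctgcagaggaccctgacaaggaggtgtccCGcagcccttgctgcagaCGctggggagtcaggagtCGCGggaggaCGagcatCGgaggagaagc
RefSeq windows were found for 7 members, and Cdkn1c, H19 and Impact had none in the table used. Among the windows not shown, that of Plagl1 held the most CG, with 26 CG and 2 GC boxes. Next was the Igf2 window at chr7:142658755-142659054, with 24 CG and 1 GC box.

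The members were also compared within each sex. By Xist and Ddx3y, 3 Cdk7_KO and 2 Ctrl libraries were male, and 2 Cdk7_KO and 3 Ctrl libraries were female. Replicates 1, 2 and 3 are all male and replicates 4, 5 and 6 all female, which means that sex cannot be told apart from anything else those numbers share. At an unadjusted p under 0.05, 0 members were lower or higher in the male libraries alone, beside 8.19% of all genes lower and 2.27% higher. In the female libraries alone 6 were lower and 2 higher, beside 12.3% and 6.92% of all genes. Grb10 had a log2 fold change of -0.49 in male and -1.60 in female libraries, and H19 one of -0.60 in male and -1.47 in female libraries. Peg3 was at 0.29 in male and -0.39 in female libraries, Impact at 0.10 and -0.33, and Dlk1 at 0.12 and -3.75. The female values of Dlk1 and Igf2 are fitted against few reads, since the 2 female Cdk7_KO libraries had 2 and 3 counts of Dlk1 and 2 and 0 of Igf2. Cdkn1c was at 0.02 in male and 0.41 in female libraries. Plagl1 was near the same in both, at -0.13 and -0.11.

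The test of this difference, a sex by genotype term in edgeR, called 0 of 15578 genes (0.0%). At an unadjusted p under 0.05 it gave 5 of 10 members, beside 7.34% of all genes. These were Grb10, Peg3, Cdkn1c, Dlk1 and Impact, each with an adjusted p of 0.665. The difference of log2 fold changes, male minus female, was 1.12 (SE 0.33) for Grb10, 0.69 (SE 0.21) for Peg3, -0.38 (SE 0.15) for Cdkn1c, 3.87 (SE 1.61) for Dlk1 and 0.44 (SE 0.19) for Impact. That for H19 was 0.88 (SE 0.55, adjusted p = 0.704). With sex as a factor in the model edgeR called Grb10 lower (log2 fold change -1.03, adjusted p = 0.0303), as 4.4% of genes were, and did not call H19 (-1.03, adjusted p = 0.0729).

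**Figure D4:**
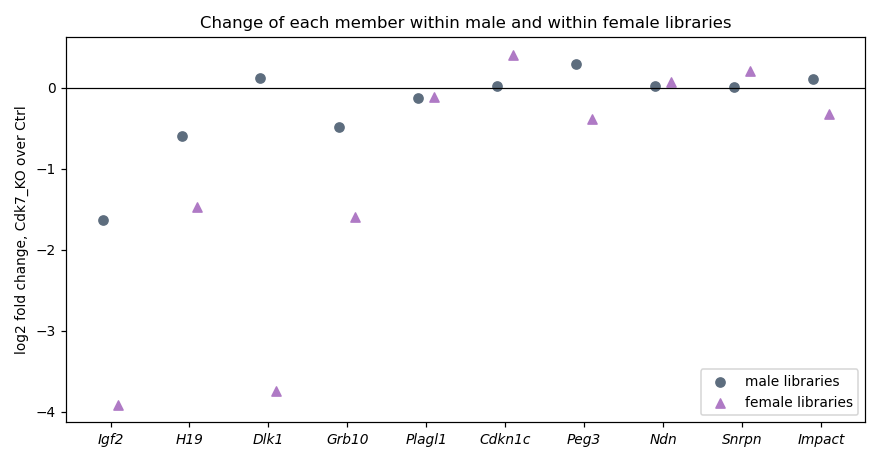
Log2 fold change of Cdk7_KO over Ctrl (y axis) of each member in the male (grey circles) and in the female (purple triangles) libraries, fitted separately in edgeR. Igf2 is at -1.63 in male and -3.91 in female libraries, while Ndn and Plagl1 lie close to each other in both.

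Neighbours in the same imprinted domains were read next to the members. Of 26 listed neighbours 18 were tested and 0 were called by edgeR, with a median log2 fold change of -0.08. At an unadjusted p under 0.05, 1 was higher and 3 lower in Cdk7_KO, beside 4.9% and 10.5% of all genes. Next to Peg3, the deubiquitinase gene Usp29 averaged 62.4 ± 5.3 CPM in Cdk7_KO and 61.0 ± 3.9 CPM in Ctrl (SD, n = 5 each). In the Ndn and Snrpn domain, the ubiquitin ligase gene Ube3a was at 0.12 (SE 0.13), Mkrn3 at 0.21 (SE 0.13), Magel2 at 0.14 (SE 0.47) and the noncoding RNA Snhg14 at -0.09 (SE 0.11), none past an unadjusted p of 0.05. Snurf, which shares its transcript with Snrpn, was listed at 0 in all libraries. Gm38393, which overlaps Snrpn on the same strand, had 2200 counts over all libraries beside 37516 for Snrpn, and how shared reads were assigned is not known.

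In the Cdkn1c domain, the noncoding RNA Kcnq1ot1, which in the mouse silences the paternal copies of Cdkn1c and its neighbours, averaged 13.6 ± 3.0 CPM in Cdk7_KO and 21.5 ± 4.0 CPM in Ctrl (SD, n = 5 each). Its log2 fold change was -0.61 (SE 0.16, edgeR adjusted p = 0.164). Kcnq1ot1 lies antisense within Kcnq1, a potassium channel gene at 0.344 ± 0.15 CPM in Cdk7_KO and 1.98 ± 2.0 CPM in Ctrl, and without a stated strand setting their reads may be mixed. The histone chaperone gene Nap1l4 was at 0.13 (SE 0.05, edgeR adjusted p = 0.221), and the tetraspanin gene Cd81 at -0.11 (SE 0.08). Next to Dlk1, the maternally expressed noncoding RNAs Meg3 and Rian were abundant and variable. Meg3 averaged 95.2 ± 64.8 CPM in Cdk7_KO and 132.7 ± 38.6 CPM in Ctrl, and Rian 166.1 ± 73.3 CPM in Cdk7_KO and 179.5 ± 44.9 CPM in Ctrl, neither passing the test. Next to Grb10, Ddc, which encodes the enzyme that makes dopamine and serotonin from their precursors, averaged 1.07 ± 0.72 CPM in Cdk7_KO and 3.49 ± 2.5 CPM in Ctrl, a log2 fold change of -1.67 (SE 0.60, edgeR adjusted p = 0.217), and Cobl was at -0.10 (SE 0.27).

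Of 33 imprinted genes of other domains 30 were tested, with 0 called and a median log2 fold change of -0.06. At an unadjusted p under 0.05, 2 were higher and 3 lower, near the 4.9% and 10.5% of all genes. The most abundant were Gnas, the gene of the stimulatory G protein alpha subunit, at 0.08 (SE 0.05), and Nnat, the gene of the small neuronal membrane protein neuronatin. Nnat averaged 1031 ± 96.3 CPM in Cdk7_KO and 860.5 ± 93.2 CPM in Ctrl, a log2 fold change of 0.32 (SE 0.09, edgeR adjusted p = 0.174), and it lies within Blcap, with which it may share reads. Inpp5f, a phosphoinositide phosphatase gene, was at 0.24 (SE 0.06, edgeR adjusted p = 0.161). The serotonin receptor gene Htr2a averaged 0.836 ± 0.23 CPM in Cdk7_KO and 2.47 ± 0.36 CPM in Ctrl. Its groups did not overlap, which held for 2.41% of all tested genes in this direction. Its log2 fold change was -1.51 (SE 0.27, edgeR adjusted p = 0.161).

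**Figure D5:**
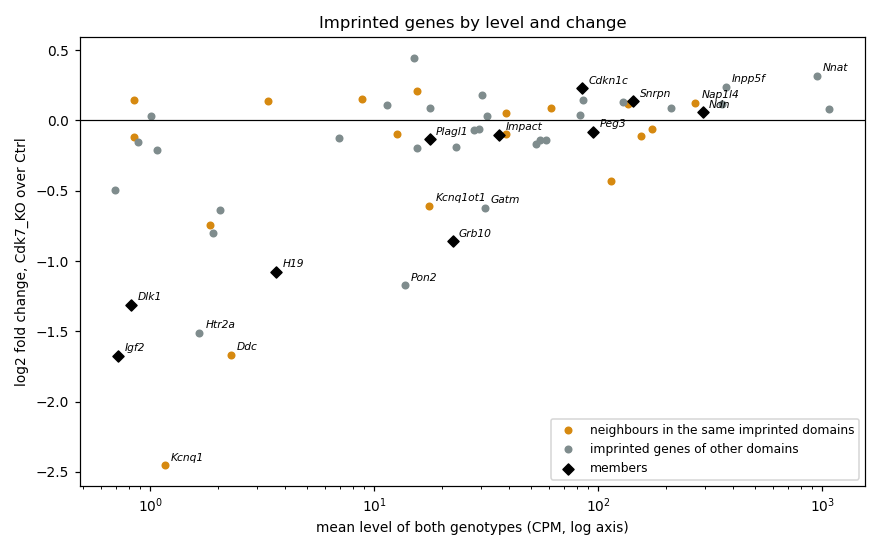
Mean level of both genotypes (x axis, CPM, log scale) against log2 fold change of Cdk7_KO over Ctrl (y axis) for the 10 members (black diamonds), the 18 tested neighbours (orange) and 30 other imprinted genes (grey). Labels mark the members and genes with an unadjusted p under 0.05. Genes above 100 CPM lie close to 0, from -0.43 for Meg3 to 0.32 for Nnat, and the negative values below -1 belong to genes under 20 CPM.

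Genes through which these growth regulators act were also read. Of 17 genes of insulin-like growth factor signalling 15 were tested, with 12 negative and 0 called. At an unadjusted p under 0.05, 3 were lower and 0 higher, beside 10.5% and 4.9% of all genes. The receptor gene Igf1r averaged 129.2 ± 13.1 CPM in Cdk7_KO and 145.0 ± 13.1 CPM in Ctrl (SD, n = 5 each), a log2 fold change of -0.11 (SE 0.09). The kinase gene Akt1 was at 0.08 (SE 0.06) and Pik3r1, a regulatory subunit of phosphoinositide 3-kinase, at 0.23 (SE 0.15). Igfbp7, a secreted binding protein also made by vessels, averaged 10.7 ± 5.4 CPM in Cdk7_KO and 36.8 ± 33.5 CPM in Ctrl, a log2 fold change of -1.74 (SE 0.53, edgeR adjusted p = 0.179). Igf2bp2, which encodes an RNA-binding protein named for its binding to Igf2 mRNA, was at -0.76 (SE 0.27, edgeR adjusted p = 0.210).

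Of 14 genes of imprint maintenance and DNA methylation 13 were tested, with 0 called. At an unadjusted p under 0.05, 2 were lower and 0 higher, beside 10.5% and 4.9% of all genes. The corepressor gene Trim28 was at 0.08 (SE 0.06), Zfp445, which guards imprints, at 0.06 (SE 0.08) and the maintenance methyltransferase gene Dnmt1 at 0.04 (SE 0.08). The de novo methyltransferase gene Dnmt3a was at -0.21 (SE 0.07, edgeR adjusted p = 0.205). Uhrf1, which guides Dnmt1 to newly copied DNA and is known from dividing cells, averaged 10.7 ± 5.5 CPM in Cdk7_KO and 18.05 ± 4.0 CPM in Ctrl, a log2 fold change of -0.70 (SE 0.29, edgeR adjusted p = 0.271).

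Among 12733 named genes with a mean of at least 1 CPM, those whose log2 CPM (TMM-scaled, prior count 2) went most closely with a member over the 10 libraries differed from member to member. This is a description of libraries that share depth and genotype, with r as Pearson's correlation. The genes named are the highest of 12733 candidates over only 10 libraries. High values of r can come from that selection alone, also once genotype means are taken out. No p-value was computed, so no link between the genes is claimed. For H19 they were Zfhx3 (r = 0.86), Igf2bp2 (r = 0.82) and Cyp2u1 (r = 0.82), and for Grb10 Fubp3 (r = 0.97), Reck (r = 0.96) and Csrp1 (r = 0.95). For Igf2 they were Bst2 (r = 0.93), As3mt (r = 0.92) and Cox7c (r = 0.91), and for Dlk1 Usp28 (r = 0.92), Nceh1 (r = 0.88) and Brinp3 (r = 0.87). Cdkn1c was most like Tsr2 (r = 0.96), Pebp1 (r = 0.95) and Pqbp1 (r = 0.94), and Plagl1 most like Fahd2a (r = 0.89), Fsbp (r = 0.88) and Tmtc2 (r = 0.86). Of the neuronal members, Ndn was most like Ubb (r = 0.94), Camk1d (r = 0.92) and Stard3nl (r = 0.90), and Snrpn most like Cnrip1 (r = 0.94), Adora1 (r = 0.94) and Gde1 (r = 0.93). Peg3 was most like Anks1b (r = 0.94), Rasa2 (r = 0.94) and Zfp536 (r = 0.93), and Impact most like Tatdn3 (r = 0.96), Med12 (r = 0.95) and Zmym6 (r = 0.95). The values for H19 were 0.60 to 0.67 once each genotype's mean was taken out, while those for Grb10 were 0.89 to 0.96. No 2 members shared a gene among these 30.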

How the data were processed

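The authors deposited unnormalized counts of reads per gene for 10 libraries. Per the submitters' processing notes, the tools were STAR and Salmon and the build GRCm38. Their versions, the counting step and its strand setting were not given in the sources used here, so overlapping genes on opposite strands may share reads. Coordinates and merged exon lengths came from GENCODE M21, and 0 count columns were without a sample.

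The test was edgeR 4.0.16 in R 4.3.3, with genotype as its sole term, filterByExpr at a minimum count of 10, TMM factors, glmQLFit and glmQLFTest. P-values were adjusted by Benjamini-Hochberg across 15578 genes. All 10 members passed the filter. Standard errors come from the F statistic. CPM uses library totals. DESeq2 1.42.0 left 10905 adjusted p-values missing. The edgeR step was tested on simulated data, with 5 libraries per genotype and 50 changed genes at each fold. It recovered 52% of 1.5-fold, 58% of 2-fold, 70% of 3-fold and 88% of 4-fold changes, with 10 false calls. The simulation drew each gene on its own, so it holds no variation shared between genes.

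The members and lists were chosen with earlier results of these data known. Named genes were Cdk7, the members, the 3 most abundant and the 2 with the smallest p of each list, and the 3 genes most alike each member, and further neighbours of members were named after their values were seen. Alternatives were DESeq2, limma 3.58.1 (voom), RLE factors, library totals, 2 other filters, robust estimation, leaving out each library, a replicate block, sex as a factor and each sex alone. The 95% intervals of fold changes are edgeR's and include the spread between libraries, while the limit from 3 counts covers counting error only.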

Additional observations from a re-analysis of the deposited data

Results flagged for a closer look

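Of 22 groups of 5 libraries examined for a library far from the others, 2 held one, and chance gives about 1 in 20. Cdk7_KO replicate 3 had a Dlk1 level of 1.58 CPM, and the next Cdk7_KO library was at 0.416 CPM. Ctrl replicate 4 had a Plagl1 level of 24.1 CPM, and the next Ctrl library was at 18.99 CPM.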

How the results depend on the processing

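The number of genes called was 0 in edgeR and became 561 with DESeq2, 732 with sex as a factor, 1 with no filter and 5 with the replicate block, and lay between 0 and 5 when single libraries were left out (5 without Cdk7_KO replicate 1). The number of members called became 2 with DESeq2 and 1 with sex as a factor, and was 0 whichever library was left out. Cdk7 passed the threshold with DESeq2 (-1.54), no filter (-1.54) and sex as a factor (-1.43), and ranged from -1.68 to -1.44 when single libraries were left out, passing without Cdk7_KO replicate 1. The log2 fold changes of H19, Grb10, Igf2, Cdkn1c, Ndn, Snrpn and Plagl1 kept their sign under every alternative that gave a value. H19 ranged from -1.47 to -0.60 and Grb10 from -1.60 to -0.49. Those of Peg3, Impact and Dlk1 turned positive in male libraries alone (0.29, 0.10 and 0.12), and Peg3 ranged from -0.18 to 0.032 when single libraries were left out, 0.032 being without Ctrl replicate 4. The cause was not tested. Igf2 and Dlk1 gave no value at a mean of at least 1 CPM. When libraries were scaled by their totals alone, the median over all genes was -0.04 in place of 0.01, and 311 genes were higher and 1907 lower at an unadjusted p under 0.05, in place of 763 and 1630. Cdkn1c was then at 0.18 and Ndn at 0.01.

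The replicate numbers 1, 3, 4 and 5 occur in both genotypes. Deviations from the genotype means of same-numbered libraries correlated between -0.10 and 0.31, and 0 of 4 were most alike their own number, so the numbers were not taken as pairs. Same-numbered libraries were of the same sex. With the replicate block, H19 was at -0.81 (edgeR adjusted p = 0.223) and Grb10 at -1.01 (0.155). Replicate 2 occurs only in Cdk7_KO and replicate 6 only in Ctrl, so these libraries add nothing to the genotype effect in that fit. Ctrl replicate 6 was the highest library in H19, and leaving it out alone gave -0.80. Few counts limit Igf2 and Dlk1 most.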
